A study of Mus musculus with 15 samples.

Results

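The cells described here are called mural and outflow smooth muscle cells of the fetal mouse heart. They are 1864 of the 50899 barcodes that held at least 300 detected genes in a Drop-seq table of 55152 barcodes. A barcode was a member when fewer than 2% of its UMIs came from 7 cardiomyocyte genes (Actc1, Tnnt2, Tnni1, Tnnc1, Myl4, Myl7 and Ttn), when 4 endothelial genes (Pecam1, Cdh5, Emcn and Egfl7) gave fewer than 2 UMIs together, and when its summed UMIs of Myh11, Rgs5, Lmod1, Clca2 and Tagln came to at least 4. That mural sum also had to exceed the barcode's UMIs of 5 valve genes (Cthrc1, Papss2, Meox1, Col9a1 and Col9a3) and of 6 fibroblast genes (Tcf21, Lsp1, Spon2, Slc38a5, Col14a1 and Ch25h). Whole hearts at stage E14.5 (mid-gestation), all of the C57BL6/N background, gave 7 wild-type (WT) libraries, labelled Adamts19+/+, and 8 libraries of homozygous Adamts19 knockouts (KO). The KO allele is named tm4a for replicates 1 to 4 and tm4b for replicates 5 to 8. The 7 WT libraries span 4 litters (replicates 1 and 2 in the first, 3 and 4 in the next, 5 alone, then 6 and 7) and the 8 KO libraries span 3 others (replicate 1 alone, 2 to 4, and 5 to 8). No litter held both genotypes, so genotype and litter cannot be told apart, and the 8 KO libraries share their flow cell with WT replicate 5 only. The number of embryos behind a library and the deleted part of Adamts19 are unknown here, so p-values measure the spread between libraries.

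Vascular smooth muscle cells and pericytes, together called mural cells, wrap the endothelium of vessels and contract to set vessel tone. Contraction rests on smooth muscle actins, myosin and their regulators, many of whose genes are driven by serum response factor bound to a DNA motif called the CArG box. In the outflow tract and great arteries, smooth muscle cells descended from the neural crest and the second heart field also lay down elastic fibres, a core of elastin on a scaffold of fibrillins, fibulins and lysyl oxidases. Pericytes of small vessels share some contractile genes but are known for potassium channel and mitochondrial genes such as Kcnj8, Abcc9 and Ndufa4l2.

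The libraries held between 5477109 and 11340443 UMIs, and members had a median of 2505.5 UMIs per cell against 2257 in the other mesenchyme. Of 55053 distinct barcode sequences, 87 occurred in more than 1 library, and none of these was a member. No doublet caller was run, and the counts of genes that differed between genotypes and from other mesenchyme were recomputed without the 5% of barcodes with most UMIs. KO replicate 4 stood apart before any comparison, with 14 members where the other libraries had between 46 and 305.

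Tagln, which codes for the actin-binding protein transgelin, and Rgs5, a regulator of G-protein signalling typical of pericytes, gave most of the UMIs that chose the members. Tagln made up 37.8% of the mural sum and Rgs5 35.4%, followed by Clca2 with 16.6%, the leiomodin gene Lmod1 with 5.18% and the smooth muscle myosin gene Myh11 with 4.91%. A UMI of Tagln was seen in 86.5% of members, of Rgs5 in 77.8%, of Clca2 in 48.2%, of Lmod1 in 37.9% and of Myh11 in 23.1%. The mural sum came from Tagln alone in 182 members (9.76%) and from Rgs5 alone in 122 (6.55%). Just outside the limit, 254 barcodes had a sum of 3, of which 31.5% held a UMI of Eln (elastin), 65.0% of Fbln5 (fibulin 5, which helps to assemble elastic fibres) and 74.0% of Acta2 (smooth muscle α-actin). Just inside it, 229 members had a sum of 4, of which 40.6% held Eln, 71.6% Fbln5 and 76.4% Acta2.

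The label was checked with genes the rule had not used. Eln was seen in 63.2% of members against 7.61% of other mesenchyme and 3.22% of 4969 endothelial barcodes (at least 4 UMIs of the 4 endothelial genes and a mural sum under 4), a class that should lack it, at median depths of 2505.5, 2257 and 2617 UMIs. Fbln5 was seen in 83.1%, 27.4% and 8.45% of the same classes, and Acta2 in 90.5%, 32.9% and 11.1%. Thinned to 1000 UMIs per cell, which left out 192 shallower members, Eln was still seen in 46.7% of members against 3.75% of other mesenchyme and 1.54% of endothelial barcodes. The glial gene Sox10 had no UMI in any member, and the macrophage genes Ptprc and Csf1r were at 2.07 and 2.78 CPM. CPM, a gene's UMIs scaled to a fixed library total, was computed on the summed UMIs of a library's members and averaged over libraries. Summed over 11 epicardial genes, members held 73.2 CPM ± 42.2 (SD, n = 15 libraries) against 639 ± 281 in other mesenchyme. Macrophage genes summed to 50.3 CPM against 333. Endothelial and glial lists went the other way. Endothelial genes outside the rule summed to 337 CPM ± 69.3 in members against 178 ± 25.8. Genes of glia, neurons and pigment cells summed to 214 ± 158 against 116 ± 53.2. What part doublets or RNA from other cells have in these sums was not tested. As a set, the members held smooth muscle genes outside the rule, and the split into kinds of mural cell follows further on.

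Members were between 0.541% (KO replicate 4) and 7.66% (WT replicate 1) of the kept barcodes, with a median of 2.65%. WT replicates 1 and 2, from 1 litter, had the highest shares, and WT replicate 4 and KO replicates 2 and 4 the lowest, so that the spread within each genotype was larger than the difference between them.

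**Figure D1:**
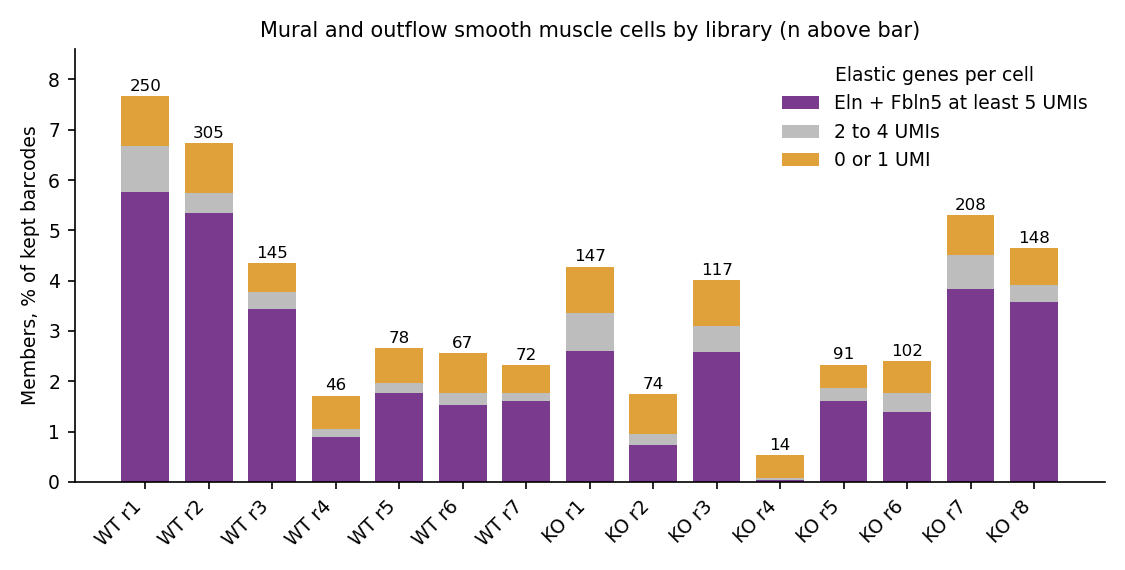
Members as a percent of the kept barcodes in each library, with the number of members above each bar. Colours split them by the summed UMIs of Eln and Fbln5, and the purple segment runs from 0.0387% in KO replicate 4 to 5.76% in WT replicate 1 while the orange segment stays between 0.461% and 0.994%.

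Against the other mesenchyme, members were higher in many contractile genes. The comparison class held 7557 barcodes, 2932 of valve type and 4625 of fibroblast type, chosen by the same limits with the valve or fibroblast sum at 3 UMIs or more and above the others. Because the rule itself set these classes apart, the differences are descriptions and carry no test. Ratios are log2 of mean CPM with 20 CPM added on each side, which understates the change of low genes. Of 9543 genes at 10 CPM or more in either class, 2.09% were higher in members in all 15 libraries and 4.14% were higher in the other mesenchyme in all 15. For comparison, 16 of 32 contractile genes were higher in members in every library and 0 lower, with a median log2 ratio of 0.82 against -0.04 over all genes.

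Acta2 ranged from 2109 to 4758 CPM over the libraries of the members, with a mean of 3548 ± 760 (SD, n = 15) against 365 ± 66.2 in other mesenchyme, a log2 ratio of 3.21. Myl9, the regulatory light chain of smooth muscle myosin, averaged 1345 ± 310 against 185 ± 37.5 CPM, a log2 ratio of 2.74. Cnn1, the calponin that restrains actomyosin, stood at 416 ± 124 against 46.6 ± 12.2 CPM. In each of these 3 genes the member value lay above the other mesenchyme in all 15 libraries. Actg2, the enteric smooth muscle actin, was higher too (265 ± 97.8 CPM in members, a log2 ratio of 2.91), though its coding sequence is nearly that of Acta2 and the counting could share UMIs between the actins. Tpm1 and Tpm2, the tropomyosins that line the thin filament, were 1.05 and 1.70 higher on the log2 scale, and Cald1, the caldesmon of the same filament, 1.22 higher. Contractile genes on the other side included Itga8, an integrin subunit (102 against 129 CPM, higher in members in 5 of 15 libraries), and Pdlim3, an α-actinin-binding protein, with 406 CPM in members and 594 in the other mesenchyme, higher in members in 1 of 15 libraries.

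Promoters of the contractile genes were searched for the CArG box. RefSeq windows of 250 bases before the start (GRCm38.p6) matched 29 of the 34 genes in the list by symbol, and 4 of these (13.8%) held the motif, as did 1.62% of the 27025 genes with a window. The motif reads the same on both strands and overlaps no other motif searched. Myl9, Cnn2, Myl6 and Vcl, the 4 with a match, were all higher in members in 15 of 15 libraries, as were 10 of the 25 genes without one. Cnn2 is a second calponin, Myl6 the essential light chain of myosin and Vcl the vinculin of cell adhesions. Their windows are shown for the motif shared by genes that were high together, 5′ to 3′ on the gene's strand, with the CArG box in capitals. They lie at chr2:156775214-156775463 on the plus strand for Myl9, chr10:79988350-79988599 (plus) for Cnn2, chr10:128493010-128493259 (minus) for Myl6 and chr14:20929148-20929397 (plus) for Vcl. The first base of the motif sits at -161, -56, -50 and -227 from the start, in that order.
Myl9: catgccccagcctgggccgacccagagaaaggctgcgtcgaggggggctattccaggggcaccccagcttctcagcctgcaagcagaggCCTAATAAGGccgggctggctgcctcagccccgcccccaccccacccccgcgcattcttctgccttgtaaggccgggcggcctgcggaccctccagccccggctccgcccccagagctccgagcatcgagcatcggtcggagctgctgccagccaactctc
Cnn2: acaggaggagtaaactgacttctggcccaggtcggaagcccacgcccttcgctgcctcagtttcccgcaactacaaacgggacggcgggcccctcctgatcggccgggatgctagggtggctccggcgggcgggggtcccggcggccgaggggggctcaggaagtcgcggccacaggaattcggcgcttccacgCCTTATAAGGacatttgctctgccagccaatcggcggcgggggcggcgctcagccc
Myl6: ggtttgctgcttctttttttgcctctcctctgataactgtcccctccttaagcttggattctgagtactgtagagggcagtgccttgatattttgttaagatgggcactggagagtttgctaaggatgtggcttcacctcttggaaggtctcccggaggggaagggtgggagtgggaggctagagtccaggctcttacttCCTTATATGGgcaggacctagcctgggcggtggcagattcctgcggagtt
Vcl: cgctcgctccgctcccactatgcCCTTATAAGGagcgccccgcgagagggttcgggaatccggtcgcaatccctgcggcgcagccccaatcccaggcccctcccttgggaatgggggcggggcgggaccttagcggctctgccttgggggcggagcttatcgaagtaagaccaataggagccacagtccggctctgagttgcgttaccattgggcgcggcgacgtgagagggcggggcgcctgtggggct
A match is a description of the letters in this window. The other 25 genes, Acta2 among them, held no exact match in any of their windows.

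Elastic fibre genes lay on both sides. Of 23 genes on the list, 5 were higher in members in every library, among them Fbln5, Lox (lysyl oxidase, which crosslinks elastin) and the fibrillin gene Fbn1, and 3 were lower. Fbln5 averaged 3564 CPM ± 1221 in members (SD, n = 15) against 353 ± 157 in other mesenchyme. Eln averaged 642 ± 255 against 41.0 CPM and was higher in 14 of 15 libraries, the exception being KO replicate 4, whose 14 members held no Eln UMI. Lox stood at 441 against 176 CPM and Fbn1 at 394 against 216 CPM. Mfap2, a protein of the fibrillin microfibrils, lay the other way, at 1228 against 1411 CPM and lower in members in 15 of 15 libraries.

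Cxcl12, a chemokine that guides vessel patterning, had the largest ratio of all genes the naming rule allowed, with 1173 CPM ± 505 in members (SD, n = 15) against 94.8 ± 52.2 and a log2 ratio of 3.38. Of the Notch pathway, 6 of 12 genes were higher in members in every library and 0 lower. These included the ligand gene Jag1 (179 against 39.4 CPM), the mural receptor gene Notch3 (105 against 34.8 CPM) and the target genes Heyl (124 against 36.4 CPM) and Hey2 (56.5 against 21.5 CPM), while the target Hes1 was lower in members (158 against 313 CPM) in 14 of 15 libraries. Pdgfrb, the receptor through which vessels recruit mural cells, was at 168 against 97.3 CPM, whereas Pdgfra, its fibroblast counterpart, was at 53.8 against 176 CPM. Efnb2 (ephrin B2, a marker of arteries) and Angpt2 (angiopoietin 2) were 1.98 and 1.85 higher on the log2 scale. Of the 30 genes of TGF-β and BMP signalling, 3 were higher in members in every library (Ctgf and Tgfb2 among them) and 3 lower, with a median log2 ratio of 0.01. Of 16 outflow tract and neural crest genes, 3 were higher in members in every library and 3 lower, with a median log2 ratio of 0.51. The outflow part of the name was not tested.

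Of the fibroblast genes outside the rule, 7 of 11 were lower in members in every library and 0 higher, and of the epicardial genes 7 of 9 were lower and 0 higher, beside 4.14% of all genes. Dcn, the proteoglycan decorin, was at 380 CPM ± 120 in members and 2638 ± 455 in other mesenchyme, a log2 ratio of -2.73. Capn6, Ugp2, Mgst1 and Itm2a were among those that followed, with log2 ratios from -2.56 to -1.73, and the epicardial genes Wt1 and Aldh1a2 were at -1.58 and -1.55. Of 16 collagen genes, 7 were lower in members in every library and 0 higher, with Col3a1 at 3681 against 5752 CPM and Col1a1 at 1550 against 2503 CPM. The basement membrane collagen gene Col4a1 was higher in members in 15 of 15 libraries, at 563 against 338 CPM. Sfrp2, a secreted Wnt antagonist that had been listed as a valve gene, was higher in members in 15 of 15 libraries (1216 against 376 CPM). None of 34 replication and mitosis genes was on 1 side in every library.

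**Figure D2:**
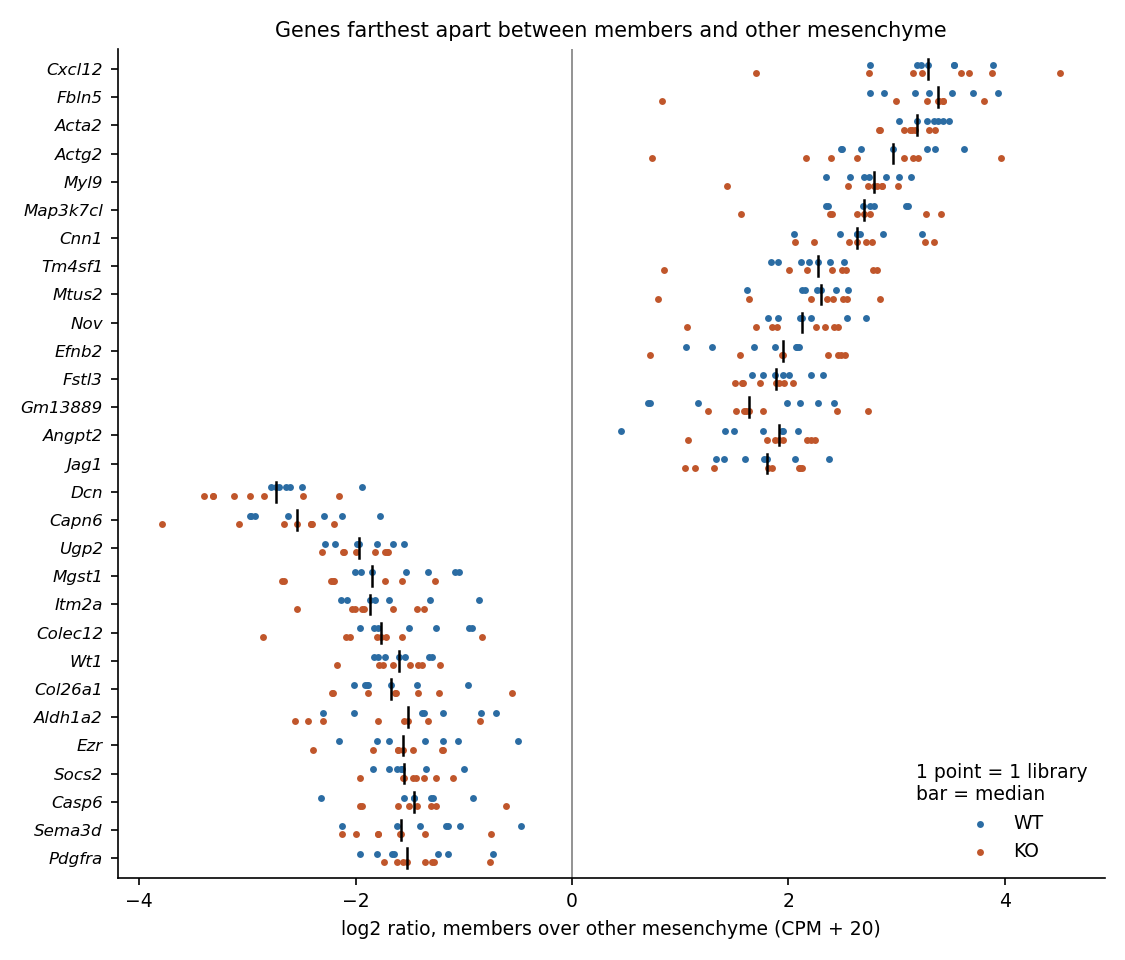
Log2 ratio of CPM + 20 between members and other mesenchyme for genes farthest apart, 15 higher and 14 lower in members, 1 point per library (blue WT, orange KO) and a bar at the median. Every point of the upper 15 genes lies above 0 and every point of the lower 14 below it. The KO point nearest to 0 for Fbln5, Actg2 and Myl9 is KO replicate 4.

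Members were not of 1 kind. The intended split into Myh11-high and Rgs5-high cells (at least 2 UMIs of the gene and more than of the other) gave 50 Myh11-high and 1194 Rgs5-high members, and only 1 library had 10 cells of both, so no comparison by library was made. Myh11 and Rgs5 were not exclusive, as 386 of the 431 members with a Myh11 UMI also held Rgs5. A wider split, chosen after the data had been seen, set 240 members with at least 2 Myh11 UMIs against 885 with at least 2 Rgs5 UMIs and no Myh11, in 9 libraries with 10 cells of both. Of the Myh11 cells, 220 also had an Rgs5 UMI.

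Of 31 contractile genes, 12 were higher in the cells with Myh11 in every library and 0 lower, beside 0.495% of 9488 genes higher and 1.52% lower. In 9 of 9 libraries they were higher in Actg2 (727 CPM ± 169 against 159 ± 62.4, SD, n = 9), in Mylk, the myosin light chain kinase (278 ± 146 against 72.0 ± 30.1), in Cnn1 (965 ± 323 against 291 ± 64.8) and in Myl9 (2584 ± 360 against 1197 ± 149). Prdm6, a transcriptional repressor of smooth muscle, was at 140 ± 66.8 against 59.4 ± 33.9 CPM. Cells with Rgs5 and no Myh11 were higher in Fabp7, a fatty acid binding protein (226 ± 142 against 24.5 ± 70.1 CPM), in the small leucine-rich proteoglycan gene Lum (349 ± 194 against 47.9 ± 53.7), in Dlk1 (477 ± 206 against 99.0 ± 107) and in Col3a1 (4091 ± 1442 against 1427 ± 796). Of 18 pericyte genes, 8 were higher in them in every library and 0 lower. Rgs5 itself was higher in the cells with Myh11, at 3407 against 2070 CPM, in 7 of 9 libraries. Since Myh11 and Rgs5 placed the cells, these values are a description of the split and carry no test.

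Members were also divided by the elastic genes, which the rule had not used. The sum of Eln and Fbln5 was 5 UMIs or more in 1293 members (69.4%, called elastic-rich), 2 to 4 in 195 (10.5%) and 0 or 1 in 376 (20.2%, called elastic-poor). These limits were set after the distribution had been seen. The rich and the poor cells had similar depth, with medians of 2633 and 2551.5 UMIs, and the 195 between them were shallower at 1258. Comparisons ran over the 14 libraries with 10 cells of both kinds, which left out KO replicate 4, and used neither Eln nor Fbln5. Of 9510 genes at 10 CPM or more, 2.04% were higher in the rich and 1.45% higher in the poor cells in every library.

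Elastic-rich cells were higher in Cxcl12 and in some of the contractile genes. Cxcl12 lay between 1119 and 2317 CPM in the rich and between 0 and 265 in the poor cells, with medians of 1585 and 45.3, and the ranges did not overlap. Myl9 ranged from 1396 to 2120 CPM in the rich and from 379 to 1009 in the poor cells, again without overlap. Of 32 contractile genes, 10 were higher in the rich cells in all 14 libraries and 1 (Itga1) lower. Acta2 was present in both kinds, at 4227 and 2239 CPM, and Cald1 did not separate them (2336 and 2195 CPM). Of 19 elastic fibre genes other than Eln and Fbln5, 7 were higher in the rich cells in every library and 1 lower. Lox (611 against 89.9 CPM), Fbln2 (1703 against 314 CPM) and Mfap4 (1005 against 205 CPM) followed the elastic genes, as did the caveolin gene Cav1 (379 against 26.8 CPM) and the cartilage proteoglycan gene Acan (177 against 9.56 CPM). Aebp1, also on the elastic fibre list, did not separate them (173 and 173 CPM). Of 14 outflow tract and neural crest genes, 1 was higher in the rich and 1 in the poor cells in every library. Osr1, a transcription factor of the second heart field, was at 175 against 13.9 CPM and Gata6, a factor required for outflow septation, at 402 against 174 CPM. The thin-filament genes Tnnt2 and Tnnc1, which the rule limits to a low share of a cell's UMIs, were at 1176 and 619 CPM in the rich and 576 and 220 CPM in the poor cells, higher in the rich in 13 and 14 of 14 libraries. Actc1, the cardiac actin under the same limit, went the other way. It was at 363 CPM in the rich and 667 CPM in the poor cells, higher in the poor in 12 of 14 libraries.

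Elastic-poor cells were higher in some of the pericyte genes. Of 19 on the list, 7 were higher in the poor cells in all 14 libraries and 0 lower. Cspg4 and Rgs4, also listed as pericyte genes, were seen in more of the rich cells. Cspg4 was seen in 32.6% of rich and 26.3% of poor cells, and Rgs4 in 9.13% and 5.32%. Ndufa4l2, a mitochondrial gene used as a pericyte marker, lay between 82.5 and 620 CPM in the poor and between 0 and 22.8 in the rich cells. Kcnj8, the pore subunit of a vascular KATP channel, had a median of 235 CPM in the poor and 5.31 in the rich cells, and was seen in 32.2% of poor against 3.09% of rich cells, 2.96% of other mesenchyme and 2.58% of endothelial barcodes. Its partner subunit gene Abcc9 was at 196 against 25.2 CPM. Kcnj8 and Abcc9 were higher in the poor cells in 13 of 14 libraries and were named after their values had been seen.

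Fabp7 separated the poor cells most, at 577 CPM ± 236 against 1.04 ± 2.62 (SD, n = 14) and 37.0% against 0.309% of cells. It is also a glial gene, and Sox10, a defining gene of glia, was at 0 in both kinds. Fabp5, Stc1 (stanniocalcin 1), Cygb (cytoglobin), Mest, Ccnd1 (cyclin D1) and Nes (nestin) were also higher in the poor cells in every library, with log2 ratios from -2.20 for Nes to -3.10 for Cygb. Basement membrane genes lay on both sides, with 4 of 19 higher in the poor and 2 higher in the rich cells in every library. Col4a1 was at 1183 CPM in the poor against 361 in the rich cells, Col4a2 at 566 against 170 and Lama4 at 331 against 93.4, while Lama5 was at 17.7 against 102 CPM and Sparc at 4183 against 6087 CPM. Of 26 smooth muscle regulators, 3 were higher in the poor cells in every library, namely Tbx20 (384 against 80.8 CPM), Prrx1 (250.2 against 92.7 CPM) and Gata4 (82.0 against 19.7 CPM), and 2 in the rich cells, Gata6 and Myocd (6.93 in the poor against 43.9 CPM in the rich cells). Rgs5, a rule gene, was seen in 82.0% of rich and 67.6% of poor cells, and Tagln in 92.0% and 69.9%. The other rule genes were further apart, with Clca2 in 58.3% and 10.4%, Lmod1 in 48.5% and 9.31% and Myh11 in 28.2% and 4.52% of rich and poor cells.

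**Figure D3:**
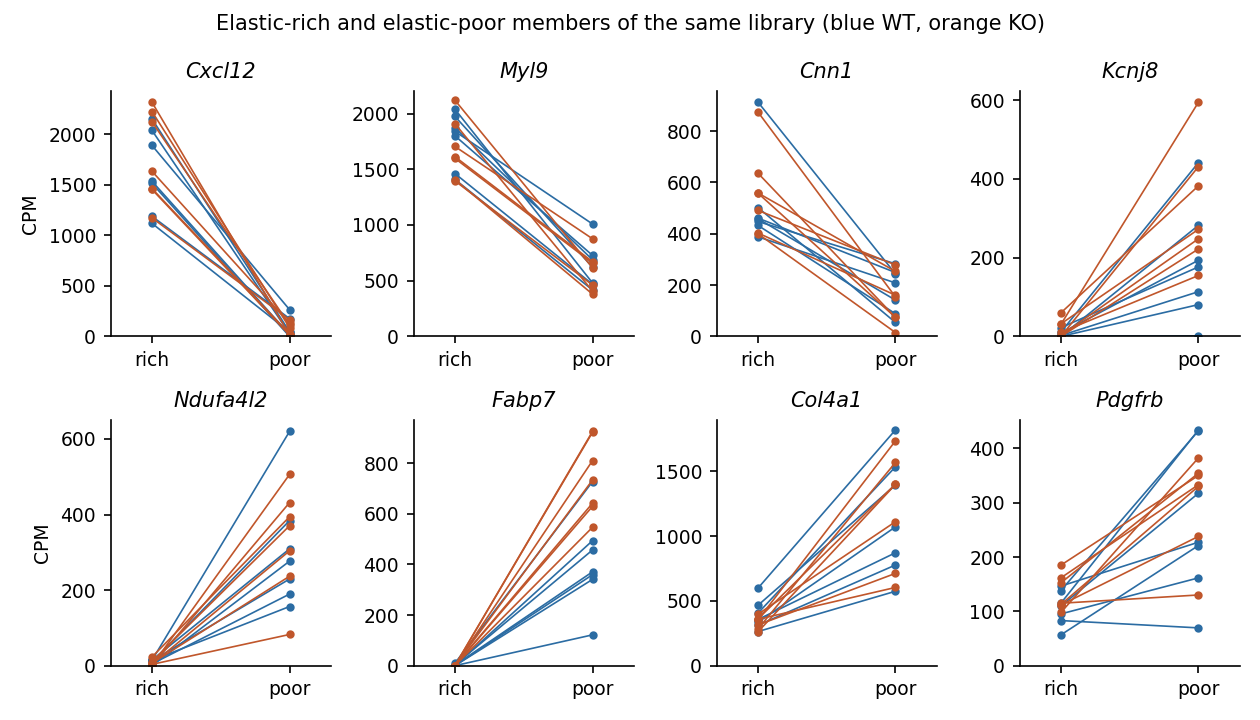
CPM of 8 genes in the elastic-rich and elastic-poor members of the same library, joined by a line, for 14 libraries (blue WT, orange KO). Cxcl12 and Myl9 lie higher in the rich cells in each library, Ndufa4l2, Fabp7 and Col4a1 higher in the poor cells, and Kcnj8 and Pdgfrb higher in the poor cells in 13 of 14.

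The targeted gene was scarce in these cells. Adamts19, a secreted metalloprotease of the ADAMTS family, was counted with 26 UMIs in 6 of the 7 WT libraries, 8.76 CPM ± 7.82 (SD), and 2 UMIs in the 8 KO libraries, 0.489 ± 0.919 CPM. WT valve-type cells held 140 ± 40.7 CPM and KO ones 38.2 ± 14.2 CPM, so the member level was near the limit of counting. LacZ, the reporter counted with the mouse genes, had 0 UMIs in WT members, which allows up to 1.09 CPM, and 15 UMIs in 4 of 8 KO libraries (6.52 ± 10.1 CPM). In KO valve-type cells LacZ stood at 85.6 ± 40.0 CPM. Both readouts cover counting error only, and a 3′ tag outside the deleted part does not check the deletion.

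The share of members did not differ between genotypes beyond the spread of the libraries. Members were 4.00% ± 2.34 of kept barcodes in WT (SD, n = 7; lowest 1.72%, median 2.65%, highest 7.66%) and 3.16% ± 1.64 in KO (n = 8; 0.541%, 3.21% and 5.31%). A two-sided exact permutation test over all 6435 assignments of the genotypes gave p = 0.429, and 0.537 when adjusted over the 5 shares tested. Libraries were permuted as if independent, although littermates shared a genotype, and shares were not tested by litter. On the shared flow cell, WT replicate 5 had 2.65% and 4 of the 8 KO libraries were lower. Elastic-rich cells were 2.91% ± 1.97 of kept barcodes in WT and 2.04% ± 1.34 in KO (exact permutation p = 0.331, adjusted 0.537), and elastic-poor cells 0.749% ± 0.183 and 0.717% ± 0.185 (p = 0.733, adjusted 0.733). Between libraries the rich share varied with a coefficient of variation of 67.9% and the poor share with 24.4%.

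Within the members, Rgs5-high cells made up a larger mean share in KO. They were 55.6% ± 8.95 of members in WT (n = 7; 39.1% to 63.6%) and 65.8% ± 7.06 in KO (n = 8; 50% to 73.6%). The difference of 10.2 points had p = 0.0287 by the two-sided exact permutation test and 0.144 after adjustment over the 5 shares, so it did not pass the threshold of 0.05. KO replicate 4, with 7 Rgs5-high cells of 14, was the lowest KO library. Without it the difference was 12.4 points with an exact permutation p of 0.000583, unadjusted. That p counts littermates as independent, and no test by litter was made. Without WT replicate 4, 5 or 7 or KO replicate 7 the unadjusted exact p lay above 0.05, the highest being 0.0646 without WT replicate 4. Rgs5 is a gene of the rule, so the share depends on the limit of the mural sum, and no conclusion is drawn from its p-values. With a limit of 6 UMIs the difference was 8.62 points with an exact permutation p of 0.190. The 1 WT library on the shared flow cell, at 51.3%, was above 1 of the 8 KO libraries.

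Between genotypes few genes differed in the members. UMI counts were summed over the members of each library and tested with edgeR's quasi-likelihood test. Of 5057 genes tested, 9 (0.178%) passed an adjusted p of 0.05 (Benjamini-Hochberg), 1 higher (0.0198%) and 8 lower (0.158%) in KO, and 506 had an unadjusted p under 0.05. DESeq2 called 20, of which 8 were among the 9. Ttn and Tnni1, 2 of the 8 lower genes, had served in the rule, and their p is not used. The number called moved between 0 (without KO replicate 5 or KO replicate 8) and 13 (without WT replicate 3) when 1 library was left out, and was 2 with the flow cell as a covariate (Myh7 and Myl3). With counts summed per litter, edgeR called 0 genes, and 448 had an unadjusted p under 0.05.

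Pcna, the sliding clamp of DNA replication, was the gene that rose. Its CPM in members was 143, 170 and 190 in WT (lowest, median, highest) and 236, 264 and 461 in KO. The groups did not overlap, and WT replicate 5 on the shared flow cell, at 156, lay below all 8 KO libraries. With the flow cell as a covariate, the contrast rests on that 1 WT library. The log2 change was then 0.86 ± 0.35 (SE), and Pcna was not called. Of the 5057 genes tested, 5 had every KO library above every WT library, Pcna among them, and 5 had every one below. The fitted log2 change was 0.73 ± 0.15 (SE) with an edgeR adjusted p of 0.0322, and 0.0518 without KO replicate 4, the highest library. The call held in 3 of the 15 fits that left out 1 library. In the other mesenchyme of the same libraries Pcna also rose, by a log2 of 0.75 ± 0.13 (edgeR adjusted p = 0.0113). Of 31 replication and mitosis genes tested, Pcna was the only one called, and their median log2 change was -0.01 against -0.03 over all genes.

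H2afv, a histone variant gene, fell. Its CPM was 367, 471 and 636 in WT (lowest, median, highest) and 264, 308 and 362 in KO, again with no overlap. The log2 change was -0.73 ± 0.15 (SE) with an edgeR adjusted p of 0.0322, and -0.64 ± 0.14 (adjusted p = 0.0471) in the other mesenchyme. Its call also held in 3 of those 15 fits. With the flow cell as a covariate the log2 change of H2afv was -0.54 ± 0.29 (SE), and it was not called.

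The other called genes that the rule had not used were 4 cardiomyocyte genes and Gm10076. Nppa, which codes for the atrial natriuretic peptide, had 118, 271 and 410 CPM in WT members (lowest, median, highest) and 22.0, 83.4 and 165 in KO. It fell by 1.44 on the log2 scale (SE 0.25, edgeR adjusted p = 0.0132). Myh7 (log2 -1.46 ± 0.29, adjusted p = 0.0322), Myl3 (-1.27 ± 0.27, 0.0414) and Mybpc3 (-1.33 ± 0.29, 0.0493 by edgeR) are genes of the cardiac thick filament and fell with it, each with overlapping groups. In the fits without 1 library, the call of Nppa held in 11 of 15, of Myh7 and Myl3 in 5, of Gm10076 in 4 and of Mybpc3 in 2 of the 13 in which it was tested. All 7 cardiomyocyte genes that were tested and not in the rule had a log2 change below 0, with a median of -1.17. Gm10076, a predicted gene whose UMIs may be shared with a near-identical copy, was at 93.2, 194 and 578 CPM in WT and 37.9, 77.0 and 124 in KO (log2 -1.60 ± 0.32, edgeR adjusted p = 0.0322).

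The cardiomyocyte genes were also lower on average in the KO barcodes of other classes. Over the 9 genes of the cardiomyocyte list detected and outside the rule, members held 0.137% ± 0.0486 of UMIs in WT and 0.0606% ± 0.0155 in KO. The other mesenchyme held 0.145% ± 0.0424 and 0.0740% ± 0.0182, and the 4856 endothelial barcodes that also met the cardiomyocyte limit 0.132% ± 0.0441 and 0.0738% ± 0.0239. Over all kept barcodes, cardiomyocytes included, the share was 2.01% ± 0.198 in WT and 1.85% ± 0.240 in KO. Haemoglobin genes were at 0.468% ± 0.534 of member UMIs in WT and 0.245% ± 0.291 in KO, with overlapping groups, and 0 of 5 erythroid genes passed the edgeR threshold. What part RNA from other cells has in the lower cardiomyocyte genes was not tested.

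**Figure D4:**
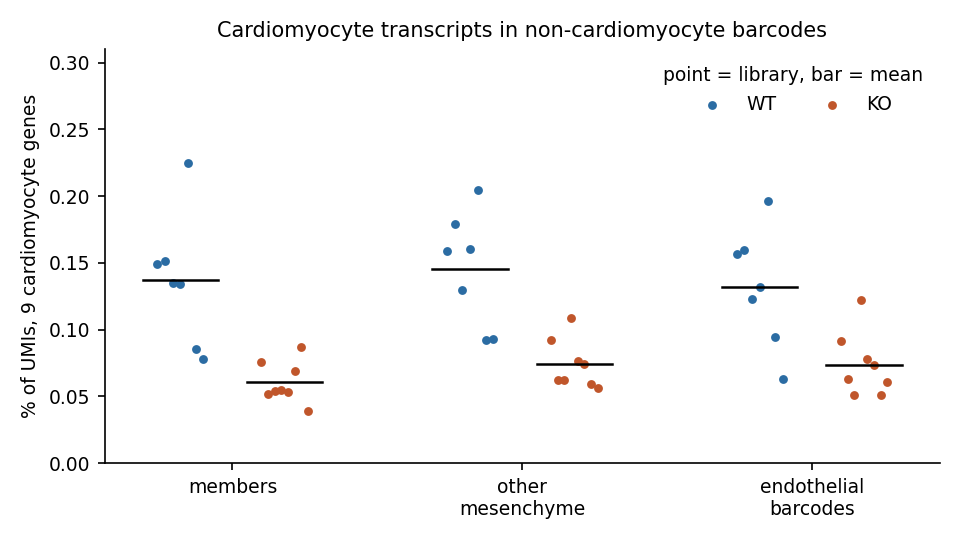
Percent of UMIs from 9 cardiomyocyte genes outside the rule, in members, other mesenchyme and endothelial barcodes, 1 point per library and a bar at the mean. The WT mean lies above the KO mean in all 3 classes (0.137% against 0.0606% in members), with overlap between the groups.

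**Figure D5:**
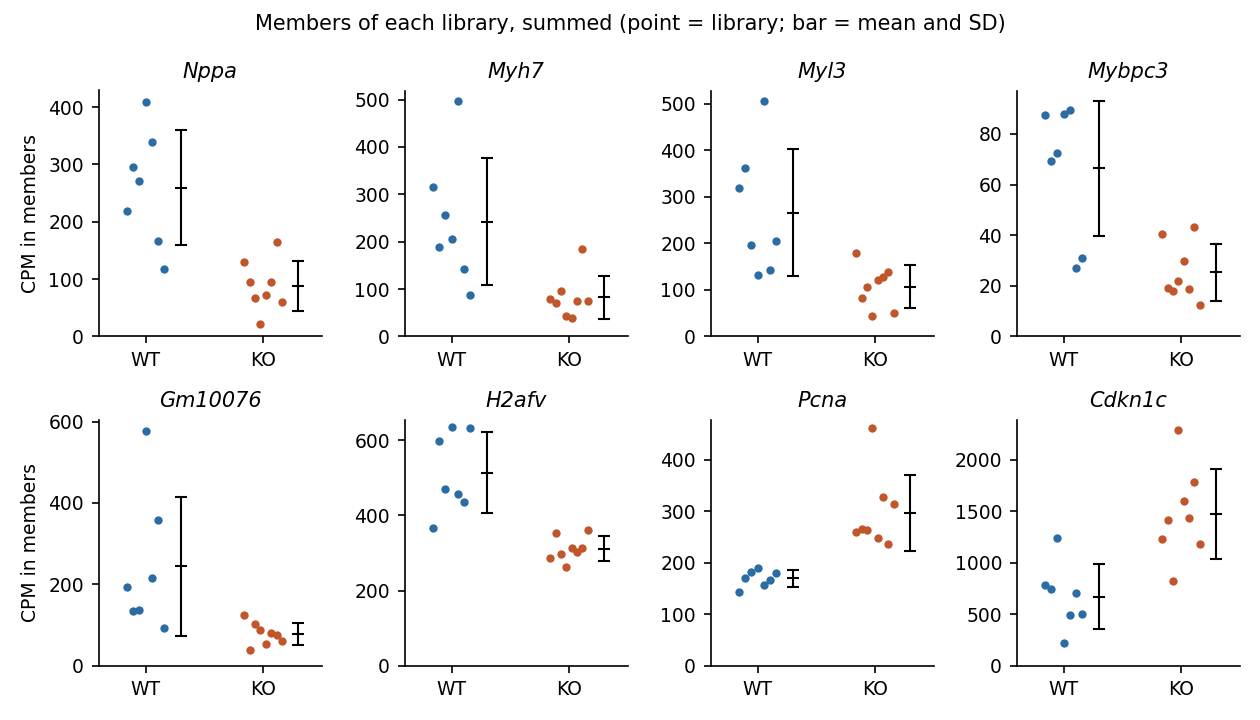
CPM in the members of each library for the 7 called genes outside the rule and for Cdkn1c, with mean and SD beside the points (WT n = 7, KO n = 8). Pcna and H2afv separate the groups without overlap, and the cardiomyocyte genes overlap. Of 5057 genes tested, 5 had every KO library above every WT library and 5 had every one below, these genes included.

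Of the 9 gene lists of mural biology counted here, none had a member past the threshold in the comparison of genotypes. The background was 0.178% of 5057 genes called, and the lists gave 0 of 28 contractile, 0 of 16 pericyte, 0 of 19 elastic fibre, 0 of 15 smooth muscle regulator, 0 of 8 Notch, 0 of 21 TGF-β and BMP, 0 of 11 PDGF and recruitment, 0 of 10 collagen and 0 of 18 basement membrane genes. Median log2 changes were -0.11 for the contractile genes (9 above and 19 below 0), 0.23 for the pericyte genes (13 above and 3 below), -0.28 for the elastic fibre genes (3 above and 16 below) and 0.12 for the Notch genes, beside -0.03 over all genes. In the other mesenchyme the elastic fibre median was -0.24 and the pericyte median -0.32.

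Single mural genes show how wide the spread was. Acta2 stood at 3887 CPM ± 749 in WT and 3251 ± 678 in KO (log2 -0.29, edgeR adjusted p = 0.551), Eln at 747 ± 260 and 551 ± 228 (-0.41, 0.634) and Fbln5 at 3968 ± 955 and 3210 ± 1376 (-0.32, 0.744). KO replicate 4, with its 12 elastic-poor cells of 14, gave the lowest KO value of Eln (0 CPM) and of Fbln5 (198 CPM), where the other KO libraries held at least 550 and 2705. Kcnj8 was at 45.5 ± 33.3 and 98.8 ± 37.8 CPM (log2 0.92, edgeR adjusted p = 0.411). Cdkn1c, the gene of a cell-cycle inhibitor, was at 668 ± 316 CPM in WT and 1468 ± 437 in KO. Its log2 change was 1.07 with an edgeR adjusted p of 0.0651, and 0.00582 with DESeq2. Over both genotypes, it was higher in members than in the other mesenchyme in 13 of 15 libraries.

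Whether the genotype difference itself differed between members and other mesenchyme was tested with both classes in 1 fit and the library as a block. Of 9258 genes, 0 (0.0%) passed an edgeR adjusted p of 0.05, while 409 had an unadjusted p under 0.05. The smallest adjusted p outside the rule was that of Abcc9 (0.130), with a log2 change of 0.22 in members and -1.09 in the other mesenchyme. For the 7 called genes outside the rule the difference between the classes lay between -0.11 and 0.01 on the log2 scale, each with an edgeR adjusted p of 1.00.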

How the data were processed

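Drop-seq UMI counts of 16809 genes in 55152 barcodes from 15 libraries of whole mouse hearts were analysed as deposited by the authors, as counts with no normalization. The tools Seurat 2.1 and bcl2fastq 2.17 and the build mm10 are named in the submitters' processing notes. Neither the aligner or counter nor the role of each tool is stated in the labels. No value column belonged to no sample (0 columns).

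The members and gene lists were chosen with earlier results of these data known. Counts of the members were summed per library and tested in R 4.3.3 with edgeR 4.0.16 (filterByExpr, TMM, quasi-likelihood, Benjamini-Hochberg threshold 0.05), with DESeq2 1.42.0 as an alternative. The 27 genes of the rule stayed in the fit, and their p-values are not used. A fit with both classes and the library as a block tested differences between classes. Shares were compared with an exact permutation test written in python 3.11.15 with numpy 2.4.6. Tables and figures used these with scipy 1.17.1, pandas 2.3.3 and matplotlib 3.10.9. On simulated counts of 5192 genes for the comparison of genotypes, 91% of the genes changed 2-fold and 100% of those changed 4-fold were recovered, with 8 false calls. The simulation used a common dispersion for all genes and no effect of litter or flow cell, and changed only genes that passed the filter. The recovery in the real libraries was not tested.

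Named genes were all that passed between genotypes, Adamts19 and LacZ, the 15 farthest apart per side of each contrast (detected in at least 10% of cells of the higher side, same direction in every library), and up to 6 of the highest mean CPM per list. Others were chosen after their values were seen. Some genes that the rule names are not reported here. Member UMIs per library ran from 45530 to 792790, which limits the precision of low genes. Intervals and limits cover counting error only. The title was used for WT replicate 4, whose description carries the number 3.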

Additional observations from a re-analysis of the deposited data

Results flagged for a closer look

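Of 61 groups of library values examined, 10 had a highest or lowest library far from the others in its own genotype, and chance gives about 1 in 20. KO replicate 4, with 14 members, was the library in 6 of them. Its Rgs5-high share of members was 50%, where the next KO library was at 63.7%. Its CPM in members was 0 for Eln, 198 for Fbln5, 395 for Myl9, 461 for Pcna and 198 for Ttn, against nearest KO values of 550, 2705, 1139, 328 and 103.

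The other 4 were spread over 4 libraries. Myh7 was at 185 CPM in KO replicate 7, with the next KO library at 96.0. LacZ was at 28.4 CPM in KO replicate 3, with the next at 12.6. Myh11 was at 513 CPM in WT replicate 1, with the next WT library at 193, and Cnn1 was at 651 CPM in WT replicate 4, with the next at 428.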

How the results depend on the processing

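Called genes between genotypes, 9 in the reported fit, numbered 20 with no filter on low counts, 20 with DESeq2, 2 with the flow cell as a covariate, 0 per litter, 1 with a mural sum of at least 6, 3 in Rgs5-high cells, 1 in the tm4a libraries and 0 in the tm4b libraries. Of alternatives chosen after seeing the data, elastic-rich cells gave 1, elastic-poor cells 0 and the libraries with at least 50 members 5. The 7 calls without the 5% of barcodes with most UMIs were all lower in KO, 6 of them among the 9, so Pcna was not called. The cause of these differences was not tested. Leaving out 1 library gave 0 to 13 calls. It was 13 without WT replicate 3, 4 without WT replicate 1, WT replicate 2 or KO replicate 7, 3 without WT replicate 4 or KO replicate 4, 1 without WT replicate 5 or KO replicate 3, 5 without KO replicate 1, 2 without KO replicate 2 or 6, and 0 without KO replicate 5 or 8. Without WT replicates 1 to 4 (added after seeing the data) there were 13, of which 2 were among the 9.

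The test of the difference between classes gave 19 genes with no filter and 0 to 1 without 1 library (1 without WT replicate 1 or KO replicate 5). Genes over 2-fold higher in members than in other mesenchyme in every library numbered 64, and 39 after thinning to 1000 UMIs. Without the 5% of barcodes with most UMIs they numbered 65.

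The KO minus WT difference in shares, in points, turned positive on the shared flow cell (no test): 0.506 for members, 2.38 for members among mesenchyme, 0.275 for elastic-rich and 0.0367 for elastic-poor cells. The elastic-poor difference also turned with a mural sum of at least 6 (0.00717), without Tagln (0.0265), with at least 500 genes (0.00156) and after thinning (0.120). The Rgs5-high difference missed 0.05 with a mural sum of at least 3 (7.60, exact permutation p = 0.0550) or 6 (8.62, p = 0.190) and with at least 500 genes (9.78, p = 0.0692). Without 1 library the differences ran from -1.22 to -0.229 for members, -5.43 to -1.58 among mesenchyme, 7.43 to 12.4 for Rgs5-high, -1.20 to -0.389 for elastic-rich and -0.0662 to 0.00851 for elastic-poor cells.

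Replicate numbers did not pair the libraries: over 7 pairs of the same number, deviations correlated between -0.273 and 0.131, and 1 of 7 correlated best with its own number. With the replicate block, which leaves out KO replicate 8, 1 gene was called. The differences were -1.05, -4.45, 9.74, -1.08 and -0.0330 points in the order above. Flipping the signs of the 7 paired differences gave an exact permutation p of 0.0156 for the Rgs5-high share. As the numbers pair nothing, no conclusion is drawn from that p. A fit in Myh11-high cells was not run, as 1 library had 10 of them.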
